A study of Rana pirica with 9 samples.

Results

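Intermediate filament genes of neurons and glia were followed in the brains of Rana pirica tadpoles kept with or without salamander larvae, which prey on them. Of 7 genes on the list (ina, nefl, nefm, prph, vim, nes and gfap), 6 of the 6485 named genes of the array had a probe set annotated with 1 symbol. They had 9 probe sets of the 15491 tested. Probe sets were found by symbol, with the ending that marks the copy of a gene dropped. The genes ina, nefl and nes had 1 probe set each (ina.S, nefl.L and nes.S). The genes nefm, prph and vim had 2 each, 1 for the copy named .L and 1 for the copy named .S. The gene gfap was not matched and was not analysed here. The family was put forward because the ina probe set had been seen to be high in the salamander group of these same arrays. Differences between the groups are therefore described and not tested for its members.

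The salamander group held 3 samples of tadpoles exposed to salamander larvae for 8 days, and the control group 6 samples of tadpoles kept for 8 days without predators. Each sample pooled 10 brains, taken before the tadpoles grew hind limbs, and the labels name no other difference between the groups. RNA was hybridized to Affymetrix Xenopus arrays, so that probes for one frog read the RNA of another, and the comparison asks which brain transcripts differ under the threat of a predator. The values are log2 signals relative to the median control array of each probe set. They carry no absolute level, so no gene's level can be set against another's, and the labelled tissue could not be checked by the level of brain markers.

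Intermediate filaments are rope-like polymers of the cytoskeleton, built from rod-shaped proteins that pair along their length. In axons of the central nervous system, alpha-internexin co-assembles with the light, medium and heavy neurofilament proteins, and these filaments set the calibre of axons. Peripherin is found mainly in neurons whose axons leave the brain or spinal cord, vimentin in radial glia, vessels and connective tissue, and nestin in neural progenitor cells. The endings .L and .S name the 2 copies that many genes have in Xenopus laevis, whose genome was doubled. Which of the frog's own transcripts each probe set binds is not known. Probe sets that disagree are therefore not read as gene copies of Rana pirica that respond differently.

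The probe set of the neuronal filament gene ina had the highest difference of the family. The probe set ina.S stood at 3.53, 3.22 and 2.42 in the salamander group, against 0.24, 1.57, -0.24, -0.44, -1.07 and 2.20 in controls. All 3 salamander arrays lay above all 6 control arrays, with a gap of 0.22 between the lowest salamander array and the highest control. The mean was 3.06 ± 0.57 in salamander samples (SD, n = 3) and 0.38 ± 1.26 in control samples (SD, n = 6), a difference of 2.68 (SE 0.71, as moderated by limma) on the log2 scale or 6.42-fold. A difference as high or higher was found in 0.0258% of all probe sets. This is the value for which the family was chosen, and it is given as a description. In whole brains, a change in the number of cells of a type and a change in RNA per cell cannot be told apart. Alpha-internexin is among the first filament proteins that a young neuron makes.

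The partners of alpha-internexin did not share one pattern. The probe set nefl.L, for the light neurofilament protein, was at 0.29, 0.25 and 2.34 in salamander samples, against -0.15, -0.79, 0.15, 0.87, 1.83 and -1.26 in control samples. Its salamander mean rests on array 3, and the other 2 salamander arrays lay within the control range. The means were 0.96 ± 1.19 in salamander samples (SD, n = 3) and 0.11 ± 1.12 in control samples (SD, n = 6), with a difference of 0.85 (SE 0.73), which was 0.16 without salamander array 3.

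For the medium neurofilament protein, whose long tail projects from the filament, the probe sets differed. The probe set nefm.S was at 1.04, 2.30 and 2.49 in salamander samples, against -1.01, 1.38, -0.04, 0.95, -0.69 and 0.04 in control samples. Of the salamander arrays, 2 lay above every control and array 1 lay below the highest control. The difference was 1.84 (SE 0.61), or 3.58-fold, with means of 1.95 ± 0.79 in salamander samples (SD, n = 3) and 0.11 ± 0.92 in control samples (SD, n = 6). The probe set nefm.L was at -0.0016, -0.55 and 0.01 in salamander samples, against 0.48, -0.91, 0.24, -0.31, 0.44 and -0.24 in control samples. Every salamander array of nefm.L lay within the control range, and the difference was -0.13 (SE 0.46). It was the steadiest member, with an SD between replicates of 0.49, where 87.6% of all probe sets had one as large or larger.

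Averaged per array, the 4 probe sets of ina, nefl and nefm were at 1.22, 1.31 and 1.82 in salamander samples, against -0.11, 0.31, 0.02, 0.27, 0.13 and 0.19 in control samples. The salamander arrays lay above the controls in this mean, which contains ina.S. Without ina.S, the mean of the other 3 probe sets was 0.44, 0.67 and 1.61 in salamander samples, against -0.22, -0.11, 0.11, 0.51, 0.52 and -0.49 in control samples, and the groups overlapped. The mean of all 9 members overlapped too, at -0.04 to 0.87 in salamander samples, against -0.71 to 0.21 in control samples.

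The probe sets of peripherin gave differences of opposite sign. The probe set prph.S was at -1.07, -1.63 and -0.86 in salamander samples, against 0.56, -1.36, -0.03, 0.03, 1.19 and -0.86 in control samples. The salamander arrays lay at the low end of the controls or, for array 2, below all of them, and the difference was -1.11 (SE 0.58). The probe set prph.L was at -0.69, -0.35 and 0.26 in salamander samples, against -0.19, 0.19, 0.35, -3.91, -3.03 and 0.95 in control samples. Here control arrays 4 and 5 lay far below the other 4, and the salamander arrays lay among those 4 or just below them. The difference of 0.68 (SE 1.01) rests on these controls. It was 0.09 without control array 4, and the difference of group medians was negative, at -0.35. The SD between replicates of prph.L, 1.72, was the largest of the family, and 1.82% of all probe sets had one as large or larger.

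Both vimentin probe sets had negative differences with overlapping groups. The probe set vim.L was at -1.80, -3.12 and 0.65 in salamander samples, against 0.10, -2.24, -0.10, 0.27, 0.14 and -1.36 in control samples. Its salamander arrays held both the lowest and the highest of the 9 values, so that the difference of -0.89 (SE 0.82) became -1.93 when salamander array 3 was left out and -0.04 when salamander array 2 was. The probe set vim.S was at -1.69, -1.08 and -0.98 in salamander samples, against 0.41, -2.18, 0.11, -0.11, -2.56 and 0.71 in control samples. The salamander arrays fell in the gap between 2 low controls and the other 4, and the difference was -0.65 (SE 0.76).

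The probe set of nestin, the progenitor filament protein, had the remaining positive difference over 1. The probe set nes.S was at 1.73, 0.60 and 1.50 in salamander samples, against 0.03, -2.03, 1.49, -1.98, -0.03 and 1.75 in control samples. The salamander arrays lay in the upper part of the controls, none above the highest of them. The means were 1.28 ± 0.60 in salamander samples (SD, n = 3) and -0.13 ± 1.63 in control samples (SD, n = 6), a difference of 1.41 (SE 0.86). Control arrays 2 and 4 lay far below the other controls, and the difference rests in part on them. It was 1.03 without control array 2 and 1.04 without control array 4, and the difference of group medians was 1.50.

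**Figure D1:**
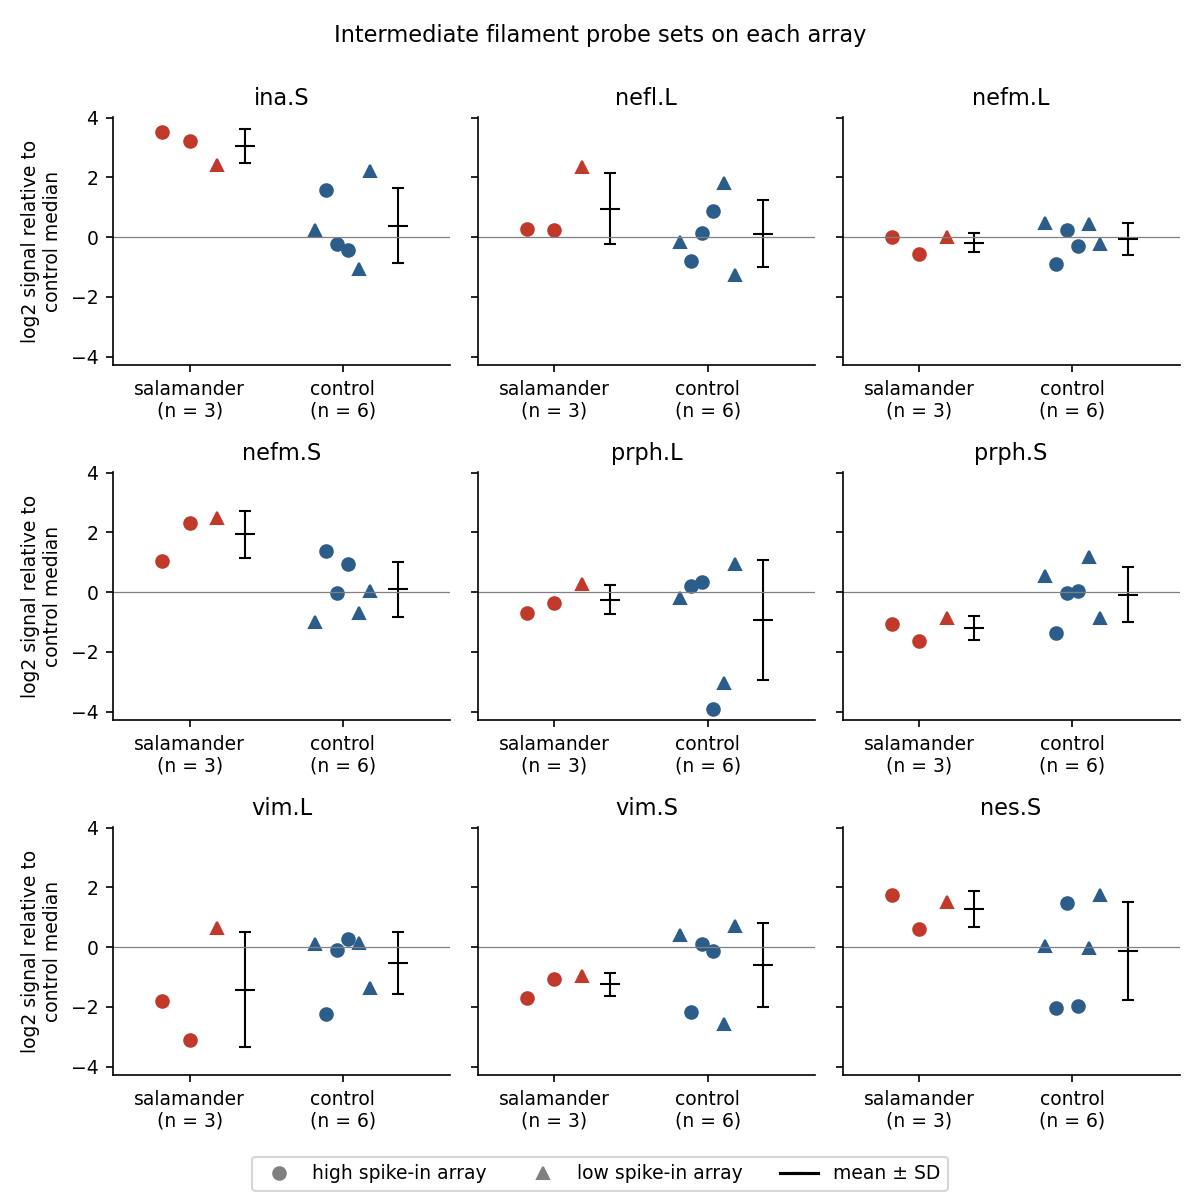
Log2 signal relative to the control median (vertical axis) of the 9 probe sets, with the salamander arrays (red) left of the control arrays (blue), 1 point per array and the mean ± SD beside each group. In ina.S the 3 salamander arrays, at 2.42 to 3.53, lie above all 6 controls, and in the other 8 probe sets the groups overlap; circles and triangles mark arrays with high and low spike-in signal.

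Over the family, 5 probe sets had a positive and 4 a negative difference, with a median of 0.68, where 50.1% of all probe sets were positive and the median of all was 0.0016. Differences over 1 (2-fold) were seen in 3 members (ina.S, nefm.S and nes.S), where the share in all probe sets was 7.42%, and 1 member (prph.S) lay under -1, where the share was 8.65%. The groups did not overlap in 1 member, ina.S; all salamander arrays lay above all controls in 1.09% of probe sets, and the groups did not overlap in either direction in 2.33%. Nothing is read from these shares, since ina.S was known when the family was chosen. In order, the differences fell from ina.S through nefm.S, nes.S, nefl.L, prph.L, nefm.L, vim.S and vim.L to prph.S. In all 8 neighbouring pairs of this order the gap was smaller than the combined standard error. In limma, 0 of the 15491 probe sets (0%) had an adjusted p under 0.05. The members are part of this fit, but it is not read as a test of them, since ina.S was already known. An unadjusted p under 0.05 was reached by 798 in limma (5.15%) and by 719 in a linear model without moderation.

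**Figure D2:**
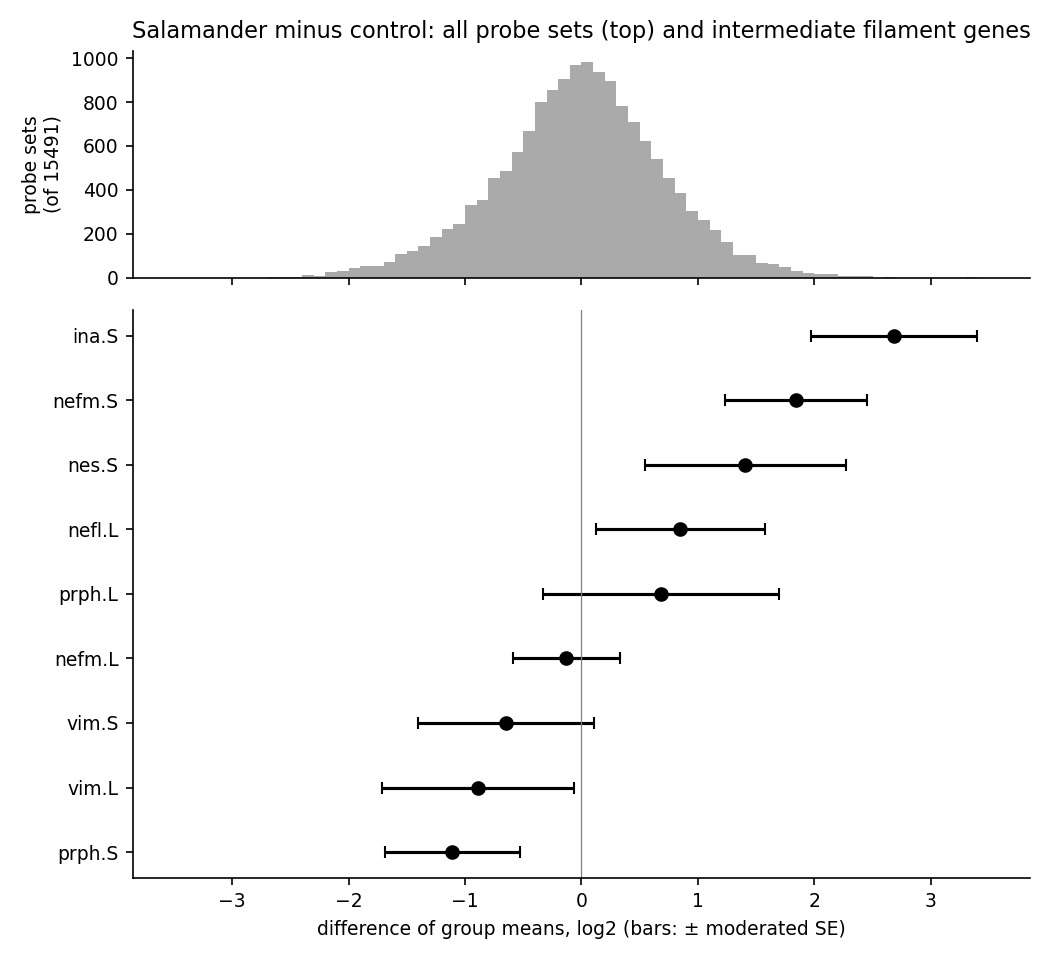
Difference of group means on the log2 scale, salamander minus control, for all 15491 probe sets (top, as a histogram) and for the 9 intermediate filament probe sets (bottom, with bars of 1 moderated standard error). The members run from -1.11 for prph.S to 2.68 for ina.S, and the bars of neighbours overlap.

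The .L and .S probe sets of a gene gave little common signal. Correlations across the 6 control arrays do not use the difference between the groups. There nefm.L and nefm.S ran in exactly opposite order, with a Pearson r of -0.94 (exact permutation p = 0.00139, adjusted 0.00417 over 3 pairs) and a Spearman rho of -1 (exact permutation p = 0.00278, adjusted 0.00833). Without the 2 arrays farthest from the median of nefm.L, r was -0.85 over 4 arrays. In prph the probe sets had an r of -0.58 (exact permutation p = 0.215, adjusted 0.323) and a rho of -0.66 (exact permutation p = 0.175, adjusted 0.263), with an r of -0.53 over 4 arrays. In vim the r was 0.23 (exact permutation p = 0.747, adjusted 0.747) and the rho -0.26 (exact permutation p = 0.658, adjusted 0.658), with an r of -0.21 over 4 arrays. These 2-sided tests were chosen after the values had been seen. Their adjustment covers the 3 pairs here and not the 748 genes described next. The p-values are therefore given as a description, and no opposition of the nefm probe sets is read from them. Each spike-in set, described below, held 3 control arrays, too few for a correlation within it, and the permutations did not keep arrays within their set. Control means on high and low spike-in arrays were -0.33 and 0.23 for nefm.L, and 0.76 and -0.55 for nefm.S. The part of the spike-in set in the r of nefm was not tested.

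The other genes with 1 probe set for each copy gave the measure for these pairs. Over 748 such genes, the median r across the control arrays was 0.01, with quartiles of -0.34 and 0.37, and an r as low as that of nefm was found in 1 gene, nefm itself. The differences of the .L and .S probe sets had the same sign in 371 of the 748 genes, or 49.6%, and in 1 of the 3 pairs here, vim. With so little agreement, the values of ina.S, nefl.L and nes.S describe 1 probe set each. They are not read as the response of the gene.

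**Figure D3:**
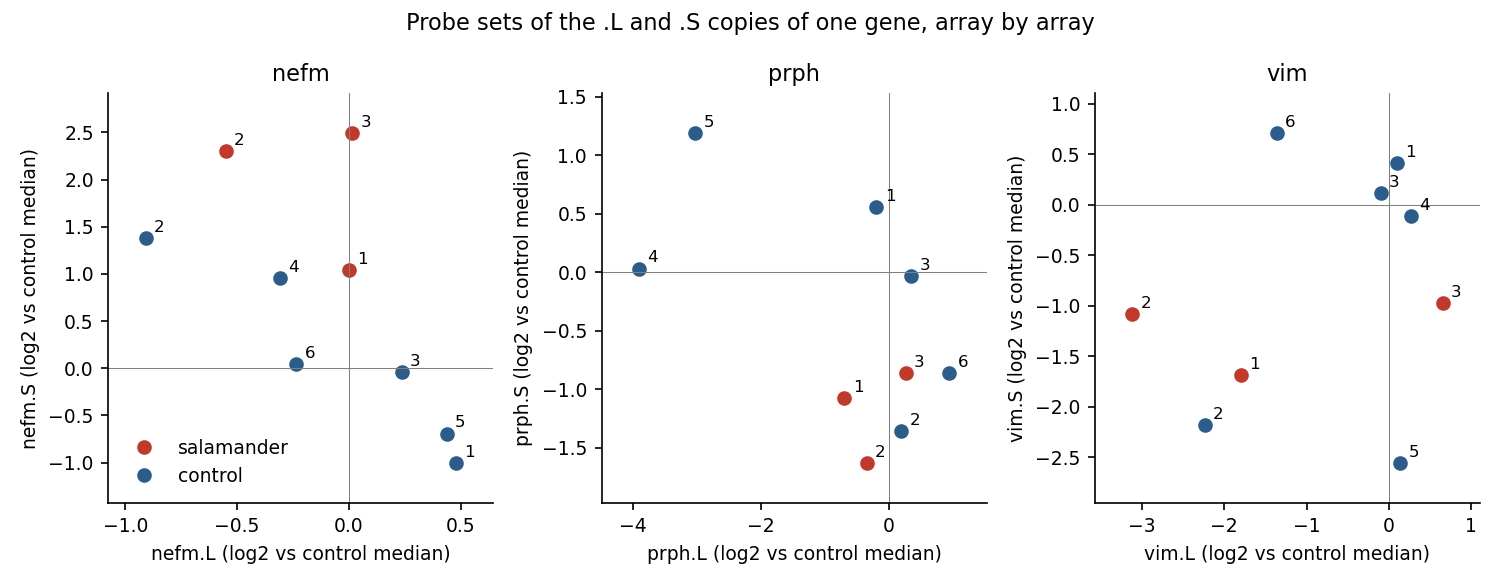
Values of the .S probe set (vertical axis) against the .L probe set (horizontal axis) of nefm, prph and vim, in log2 relative to the control median, with 1 numbered point per array (salamander red, control blue). The 6 control points of nefm run from upper left to lower right with an r of -0.94, and those of prph and vim are scattered.

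The arrays fell into sets by their poly-A spike-in RNAs, which are added to each sample before labelling. The mean of their 27 probe sets was 1.04 to 1.60 on salamander arrays 1 and 2 and control arrays 2, 3 and 4, and -2.04 to -1.54 on salamander array 3 and control arrays 1, 5 and 6. With the set as a term in limma, 0 of 15491 probe sets (0%) differed between high and low arrays at an adjusted p under 0.05, members included, while 824 (5.32%) reached 0.05 before adjustment, 0 of them members. The difference of ina.S was 3.08 among the high arrays, with 2 salamander and 3 control arrays, and 1.96 among the low ones, where salamander array 3 stands alone against 3 controls. For nes.S these values were 2.01 and 0.92, for prph.S -0.90 and -1.15, for vim.S -0.66 and -0.50, and for prph.L 0.60 and 1.02. The neurofilament probe sets were more uneven, at 0.91 among the high and 3.04 among the low arrays for nefm.S and at 0.19 and 2.20 for nefl.L. The sign turned in 2 members: vim.L was at -1.77 among the high arrays and 1.03 among the low ones, and nefm.L at 0.05 and -0.21.

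With 1 array left out, ina.S stayed between 2.39 and 3.05, nefm.S between 1.57 and 2.29, nes.S between 1.03 and 1.78, and prph.S between -1.37 and -0.86. These 4 moved by less than 1.5 times, although leaving out 1 array never removes both low controls of nes.S, arrays 2 and 4. The other 5 moved by more. Besides nefl.L, prph.L and vim.L, given above, vim.S became -1.04 when control array 5 was left out and -0.38 when control array 6 was, and nefm.L became -0.30 when control array 2 was left out and 0.06 when salamander array 2 was.

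**Figure D4:**
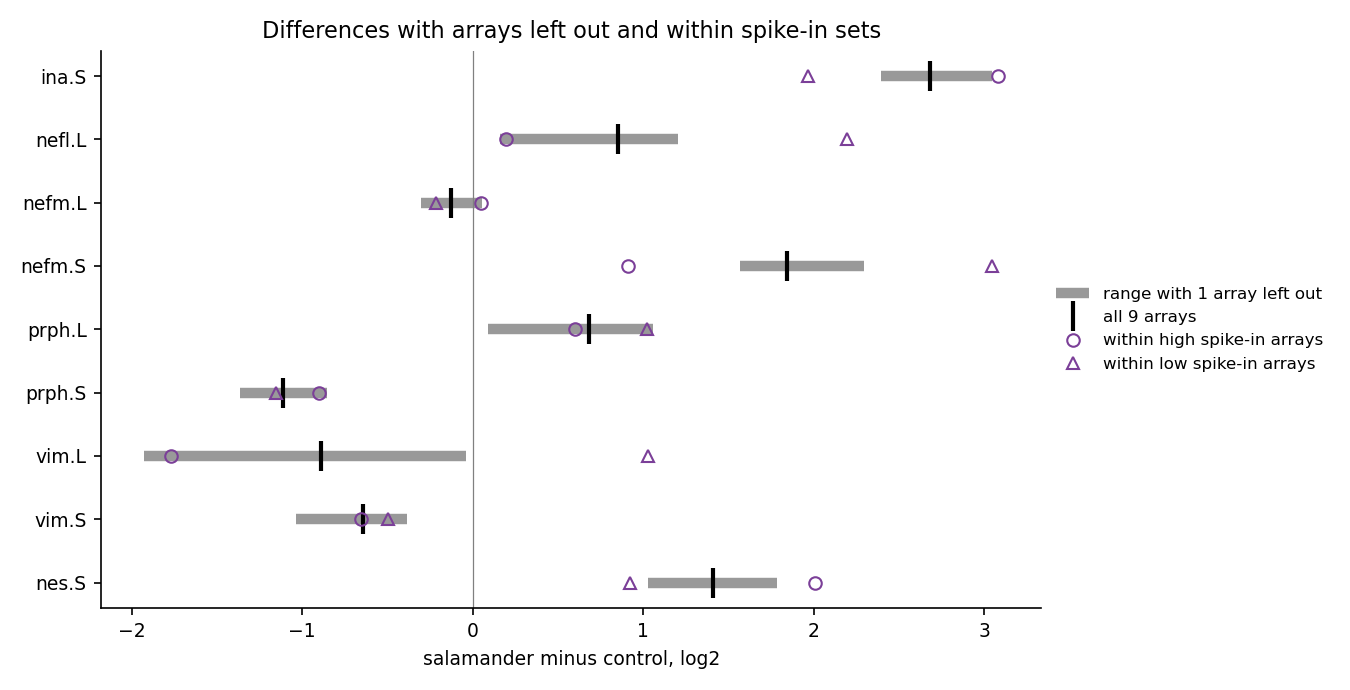
Difference of each probe set on the log2 scale, salamander minus control, with all 9 arrays (black mark), its range with 1 array left out (grey bar) and its values within the high (circle) and low (triangle) spike-in arrays. The bar of ina.S lies at 2.39 to 3.05, and those of nefm.L, vim.L and prph.L reach or nearly reach 0. The circle and triangle lie on opposite sides of 0 for vim.L and nefm.L.

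The deposited values keep a trace of weak signals in their rounding. A step finer than a logarithm of 8 allows marks either a signal below 256 or a control median below it, and weak signals can also go unmarked. In ina.S 0 of 3 salamander values and 3 of 6 control values (arrays 2, 3 and 5) were marked, the highest number of the family. Control array 2 lay at 1.57, above the control median, so under either reading of its mark that median was below 256. The fold of ina.S therefore rests in part on weak control signals. In vim.L the marks fell on 2 salamander values, arrays 1 and 2, which were also its 2 low salamander values, and on 0 controls. The other members had at most 1 mark, and nefm.L, prph.L and prph.S had 0. The mark of nefl.L fell on control array 4, at 0.87, which by the same reading places its control median below 256.

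The genes with patterns most like each member, of 9302 or 9303 probe sets with 1 symbol, were picked by Pearson r over the 9 arrays, and with so many candidates a high r is bound to occur. For ina.S they were zar1.S (r = 0.96), adipor1.S (r = 0.95) and dctn1.L (r = 0.94). For nefm.S they were magainins.L (r = 0.91), poldip2.S and ckmt1b.L (r = 0.89 each), and for nefm.L metrnl.L, LOC100191024 and XB5776174.S (r = 0.90 to 0.94). The probe set nefl.L was closest to ackr4.L, fyttd1.S and eef2.1.L (r = 0.88 each), and nes.S to nsf.L, cd37.L and chtf8.L (r = 0.93 to 0.94). For prph.L they were anxa7.S, h3c13.S and cbs.L (r = 0.94 to 0.96), and for prph.S sgsm3.S, htr3a.L and calcrl.L (r = 0.91 to 0.93). For vim.L they were prpf4b.S, aldh7a1.L and n6amt1.L (r = 0.92 to 0.94), and for vim.S chmp1b.S, tal1.S and ptpra.S (r = 0.92 to 0.95). In none of these trios did another member appear. So few places among so many candidates left little room for one, and nothing is read from this. The r over all 9 arrays also contains the difference between the groups. For the trio of ina.S, those differences were 1.41 (zar1.S), 2.15 (adipor1.S) and 1.73 (dctn1.L).

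Genes that handle filaments were described as lists, by probe set, and no list held a call (0 of all 15491 in either direction). Of 12 probe sets for motors that carry neurofilaments along axons, 8 had a positive difference, with a median of 0.20. The dynactin subunit dctn1.L was highest at 1.73 (SE 0.67), with values of 2.60, 2.13 and 2.19 in salamander samples, against 0.0016, 2.04, -0.52, -0.0016, -0.21 and 2.15 in control samples, and the dynein light intermediate chain dync1li1.S lowest at -1.45 (SE 1.13). Control arrays 2 and 6 of dctn1.L lay at the level of the salamander arrays, so the groups overlapped. It is also one of the patterns picked above for likeness to ina.S. Of 12 probe sets for linkers of filaments to junctions and other cell structures, 9 were positive, with a median of 0.35, between the junction plaque proteins pkp2.L at 1.20 (SE 0.87) and pkp3.L at -0.61 (SE 0.59). Kinases, a phosphatase and turnover factors of filaments had 7 positive of 17 probe sets, which cover 12 genes, and a median of -0.46. They ran from the protein kinase A subunit prkaca.S at 1.04 (SE 0.54) to the mitotic kinase cdk1.S at -1.75 (SE 0.80). This list held several probe sets of plk1.S, at -0.80, -0.55 and -0.53. For the lowest probe set of each of these lists, the probe set named for the other copy had a positive difference. It was 0.29 (SE 0.54) for dync1li1.L, 0.37 (SE 0.55) for pkp3.S and 0.51 (SE 0.69) for cdk1.L.

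The other intermediate filament proteins, lamins of the nuclear envelope and keratins of epithelia, had 10 positive of 35 probe sets and a median of -0.38. They ran from krt55.L at 1.24 (SE 0.40) to krt57.L at -1.60 (SE 0.71). In krt55.L all salamander arrays, at 0.88 to 1.53, lay above all controls, at -0.27 to 0.38, and in krt17.S, named here because its groups did not overlap, the salamander arrays lay below the controls with a difference of -1.16 (SE 0.54). That makes 2 of 35 probe sets without overlap, where 2.33% of all had none. Weak marks, described above, were on 5 of the 9 values of krt55.L and on 1 of krt17.S.

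Markers of cell types were set beside the members. Of 15 neuron probe sets, which cover 10 genes, 11 had a positive difference, with a median of 0.29. They ran from the adhesion molecule ncam1.S at 1.09 (SE 0.67) to the vesicle protein syp.S at -0.79 (SE 0.65). Their mean per array was 0.21 to 0.47 in salamander samples, against -0.25 to 0.16 in control samples. The radial glia and astroglia list had 6 positive of 11 and a median of 0.01, from sox2.L at 1.09 (SE 0.73) to hes1.S at -1.28 (SE 0.99), both genes of progenitor cells. A second probe set of sox2.L was at 0.17 (SE 0.48), and the probe set named for the other copy of hes1, hes1.L, was at 0.0051 (SE 0.73). The mean of the radial glia and astroglia list per array was -0.45 to 0.23 in salamander samples, against -0.48 to 0.56 in control samples. The 4 probe sets of the oligodendrocyte list all had negative differences, with a median of -1.04. They were 2 of mbp.S, a gene of central and peripheral myelin, at -0.35 (SE 0.42) and -0.75 (SE 0.77), and those of pmp22, a gene mainly of peripheral nerve myelin and no marker of oligodendrocytes, at -1.34 (SE 0.73) for pmp22.S and -1.33 (SE 0.57) for pmp22.L. The list's mean per array was -1.32 to -0.71 in salamander samples, against -0.53 to 0.42 in control samples. With 2 of the 4 probe sets from pmp22, this mean and the list's median are not read as values of oligodendrocytes. The groups overlapped in every probe set of the neuron, radial glia and oligodendrocyte lists. The part of these list values in the members' differences was not tested.

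Tissues that could come along with a dissected brain were covered as well. Skeletal muscle had 8 positive of 12, with a median of 0.35, from a probe set of the creatine kinase ckm.L at 1.05 (SE 0.63), where its other 2 were at 0.29 and 0.41, to the myosin light chain myl1.S at -0.30 (SE 1.01), and a mean per array of 0.21 to 0.23 in salamander samples, against -0.39 to 0.29 in control samples. The probe sets of the other copy, myl1.L, were at 0.90, -0.26 and 0.70. Erythrocytes had 1 positive of 4, with a median of -0.95, from the globin hbg1.L at 1.04 (SE 0.77) to the anion exchanger slc4a1.L at -1.90 (SE 0.57), and a mean per array of -1.11 to -0.20 in salamander samples, against -0.79 to 0.86 in control samples. Leukocytes and microglia had 3 positive of 6, with a median of -0.10, from the protease ctss.S at 2.39 (SE 0.64) to the actin bundler lcp1.S at -0.76 (SE 0.68), and a mean per array of -0.28 to 0.49 in salamander samples, against -0.70 to 0.72 in control samples. The groups did not overlap in slc4a1.L, at -2.33 to -2.11 in salamander samples, against -1.44 to 0.95 in control samples. They did not overlap in ctss.S either, at 2.27 to 2.65 in salamander samples, against -1.41 to 1.93 in control samples. That makes 1 of 4 erythrocyte and 1 of 6 leukocyte probe sets without overlap, where 2.33% of all probe sets had none. Weak marks were on 2 of the 9 values of slc4a1.L and on 4 of ctss.S. The leukocyte median turned sign with the arrays used, from -0.26 when salamander array 1 was left out to 0.33 when salamander array 2 was. The part of these tissues in the values of vim, which vessels and blood cells also express, was not tested.

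**Figure D5:**
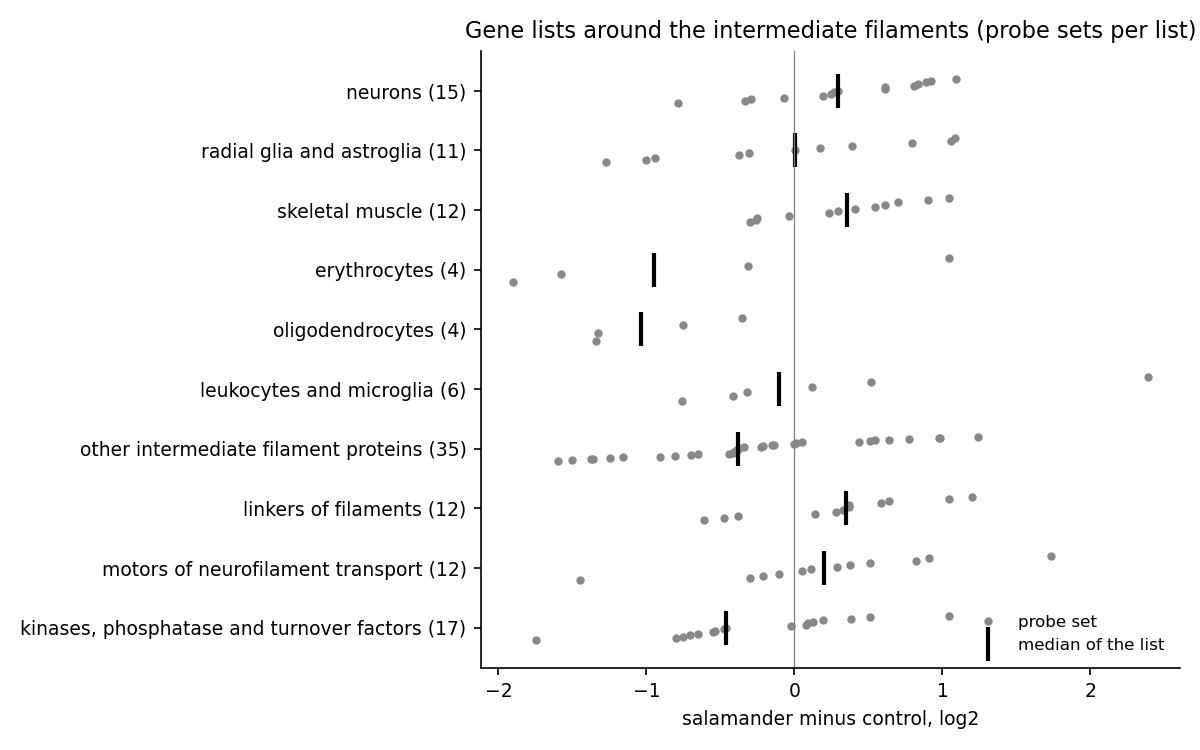
Difference of each probe set on the log2 scale, salamander minus control (horizontal axis), in 10 gene lists around the intermediate filaments, with 1 grey point per probe set and a black mark at the median of each list. The medians lie between -1.04 for the oligodendrocyte list, which includes pmp22, and 0.35 for skeletal muscle, and most lists spread over both sides of 0.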

How the data were processed

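Brain RNA of 3 salamander and 6 control samples was measured on one-colour Affymetrix Xenopus arrays. MAS5 gave the signals, per the submitters' processing notes, with no version stated. The authors' deposited log2 values cover 15611 probe sets, of which 120 Affymetrix controls were left out, with 0 columns of other samples. In every row the controls had a median of 0 (largest departure 9.54e-07), so the values were centred; base 2 was read from rounding steps, compared within 0.2 of a step. The scaling between arrays is unknown. Groups and replicate numbers came from the titles. Replicates are called biological, each a pool, and their number limits precision.

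Symbols came from the platform annotation (9304 probe sets with 1 symbol, 195 with several, which named none, and 6187 tested without one). All tested probe sets were fitted with limma's lmFit and eBayes without a trend, and p-values were adjusted by Benjamini-Hochberg with a threshold of 0.05. The fit was tested on simulated data. Software was R 4.3.3 with limma 3.58.1, and Python 3.11.15 with scipy 1.17.1 and, for plots, matplotlib 3.10.9. Members, lists and tests were chosen with earlier results of these data known. Text names every probe set of the listed genes, the 3 most similar patterns of each, and the highest and lowest probe set of each list. Alternatives were other scalings, array weights, a spike-in or replicate block, group medians, gene means, unmoderated and robust fits, a filter on weak signals, and each array left out.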

Additional observations from a re-analysis of the deposited data

Results flagged for a closer look

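Among 39 sets of 6 control values (members, named list genes and list means), 1 had a lone array far from the rest, where chance alone marks about 1 in 20. It was pkp2.L, a linker gene, at 3.06 on control array 5, with the next highest control at 0.59. Its salamander values were 3.23, 1.90 and -0.10.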

How the results depend on the processing

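Calls numbered 0 in every setting run, for the salamander contrast and for the spike-in term. When probe sets with over 1 weak mark were left out, 355 of the remaining 7321 had an unadjusted p under 0.05 in the salamander contrast. Over all 15491 probe sets, that number was 475 after quantile normalization and 719 to 861 otherwise. Quantile normalization was run on values already centred on the control median, not on signals. The median of the 9 members, 0.68, stayed within 1 SD of its spread over control arrays under quantile normalization (0.73), array medians (0.68), the spike-in block (0.76), array weights (0.68), gene means (0.85) and within the low arrays (1.02). It became -0.0016 with group medians, 0.19 within the high spike-in arrays and -0.12 with the replicate number as a block. No salamander array has the number of control arrays 4, 5 and 6. The block therefore sets the salamander arrays against control arrays 1, 2 and 3 only, without the low controls 4 and 5 of prph.L. With 1 array left out, the median ran from 0.087 (without control array 4) to 0.90. The cause of the changes outside the block was not tested. Whether the replicate numbers pair the samples could not be told. Deviations of same-numbered arrays correlated at -0.0049 to 0.016, and 1 of 3 salamander arrays correlated best with the control of its number. Salamander array 1 correlated as weakly with control arrays 2, 3 and 4 of its own spike-in set, at 0.0013, 0.0072 and -0.0028. The check may therefore miss a shared origin. Under the block by replicate number, and so without control arrays 4, 5 and 6, the radial glia list was at -0.32 and the kinase list at -0.084. Within the high spike-in arrays, list medians were 0.21 for radial glia, -0.25 for erythrocytes, -0.18 for other filament proteins and 0.64 for motors. Within the low arrays, resting on salamander array 3 alone, they were 0.65 for neurons, 0.39 for radial glia, -0.57 for oligodendrocytes, 0.94 for leukocytes, -0.16 for other filament proteins and 0.057 for kinases. With 1 array left out, neurons ran from 0.26 to 0.42, radial glia from -0.31 to 0.28, motors from -0.027 to 0.46, kinases from -0.52 to 0.024, leukocytes from -0.26 to 0.33, skeletal muscle from 0.19 (without control array 1) to 0.46, linkers from 0.21 (without control array 3) to 0.44 and other filament proteins from -0.37 to -0.23 (without salamander array 2). Of single members, prph.L turned sign under the replicate block (-0.38) and with group medians (-0.35). The arrays number 3 against 6, and weak signals are only partly known, which limits the precision of every value.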
